A study of Arabidopsis thaliana with 9 samples.

Results

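The genes described here are 51 nuclear loci of Arabidopsis thaliana that encode chlorophyll-binding antenna proteins, subunits of the 2 photosystems, and proteins of photosynthetic electron transport and the chloroplast ATP synthase. They were taken by locus identifier from a table of 33602 loci, and all 51 were found and passed the filter on low abundance. By role, 6 belong to the antenna of photosystem I (LHCA), 14 to the antenna of photosystem II (LHCB), 12 are photosystem I subunits (PSA), 10 are photosystem II subunits (PSB) and 9 belong to electron transport and ATP synthase. Young leaves were taken from rosettes of the strain Col-0 at an age of 8 weeks, grown in short days and lit for 2 hours with 125 µE m-2 s-1 before harvest, and their poly(A) RNA was sequenced. There were 3 genotypes: the wild type, the mutant 2cpab, which is mutated in both genes for the chloroplast 2-Cys peroxiredoxins (2CPA and 2CPB), and the mutant ntrc-2cpab, which is mutated in the same genes and in NTRC, the gene for the chloroplast NADPH-dependent thioredoxin reductase C. Each genotype had 3 biological replicates, and each replicate pooled leaves of 3 plants. The sources used here do not name the alleles of the mutated genes.

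Photosystem II takes electrons from water and passes them through the cytochrome b6f complex and plastocyanin to photosystem I, which reduces ferredoxin, and ferredoxin-NADP reductase (FNR) then makes NADPH. LHCB proteins gather light mainly for photosystem II and LHCA proteins for photosystem I, and the proton gradient that builds up drives the ATP synthase. These complexes are mosaics, with core subunits encoded in the plastid and antenna and many peripheral subunits encoded in the nucleus. 2-Cys peroxiredoxins reduce peroxides in the same compartment and take their electrons largely from NTRC.

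The values are abundances, calculated back from deposited log2 values with an offset of 1. The sources used here do not give whether they are FPKM or TPM, nor the number of reads, so the depth is unknown and precision rests on the spread between replicates. 2CPA lay between 259 and 325 in wild-type leaves and between 3.43 and 4.85 in the 6 mutant samples. 2CPB lay between 53 and 63.4 and between 8.88 and 10.8 in the same order. NTRC lay between 74.5 and 80.2 in wild-type leaves, between 60.9 and 68.1 in 2cpab leaves, and between 14.7 and 18.3 in ntrc-2cpab. Each of these genes was thus lower in every sample whose label names its mutation than in the samples without it, and all of them remained measurable there. NTRC was also lower in every 2cpab sample than in every wild-type sample. The leaf mesophyll markers RBCS1A, RCA and CA1 summed to between 13800 and 20900 in every sample, and the root marker PYK10 did not exceed 0.451. Within the wild type, replicate 1 stood apart by its plastid loci. They took 55.9% of the summed abundance, against 46.8 to 51.8% in the other 8 samples. The defence genes also varied within the wild type, lowest in replicate 1 and by far highest in replicate 2. In replicates 1, 2 and 3, PR1 was at 0.259, 24.4 and 3.9, PR2 at 4.79, 49 and 9.14, and PR5 at 10.7, 68.7 and 19.7.

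The 51 genes were among the most abundant nuclear transcripts of the leaf. Together they made up 16.2, 18.4 and 17.8% of the summed abundance of nuclear loci in the wild-type replicates 1, 2 and 3, 14.5, 13.7 and 15.8% in 2cpab leaves, and 15.4, 15.9 and 16.1% in ntrc-2cpab. Every 2cpab share lay below every wild-type share, and so did every ntrc-2cpab share, although wild type replicate 1 was only slightly above the highest mutant sample. On the abundance scale the genes spread widely. LHCB1.3, which encodes a protein of the trimeric main antenna complex LHCII, had a 9-sample mean of 11097 and ranked at place 4 of 33323 nuclear loci, whereas LHCB4.3 had a mean of 14.3 and ranked at place 3685. The other low members were LHCA6 (51.8), LHCA5 (86.3) and FNR2 (171). LHCA5 and LHCA6 are minor antenna proteins that link photosystem I to the NADH dehydrogenase-like complex.

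Across the samples the members moved up and down together. The median deviation of the 51 genes from their 9-sample means, on the log2 scale, was -0.08, 0.24 and 0.18 in the wild-type replicates 1, 2 and 3, -0.18, -0.16 and -0.02 in 2cpab leaves, and -0.01, -0.04 and 0.03 in ntrc-2cpab. For all 51 genes the lowest wild-type sample was replicate 1. It lay inside the range of the 6 mutant samples for 36 of them, above all 6 for 8 and below all 6 for 7. Wild type replicates 2 and 3, in contrast, lay above all 6 mutant samples for 47 and 43 genes. The lowest of all 9 samples was 2cpab replicate 2 for 25 genes and 2cpab replicate 1 for 18. Wild type replicate 2 was the highest of all 9 for 41 genes. The 51 genes are thus not independent, and a count over them can repeat the same shift of a sample. For the 51 genes together, each comparison is therefore also given with single samples left out.

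**Figure D1:**
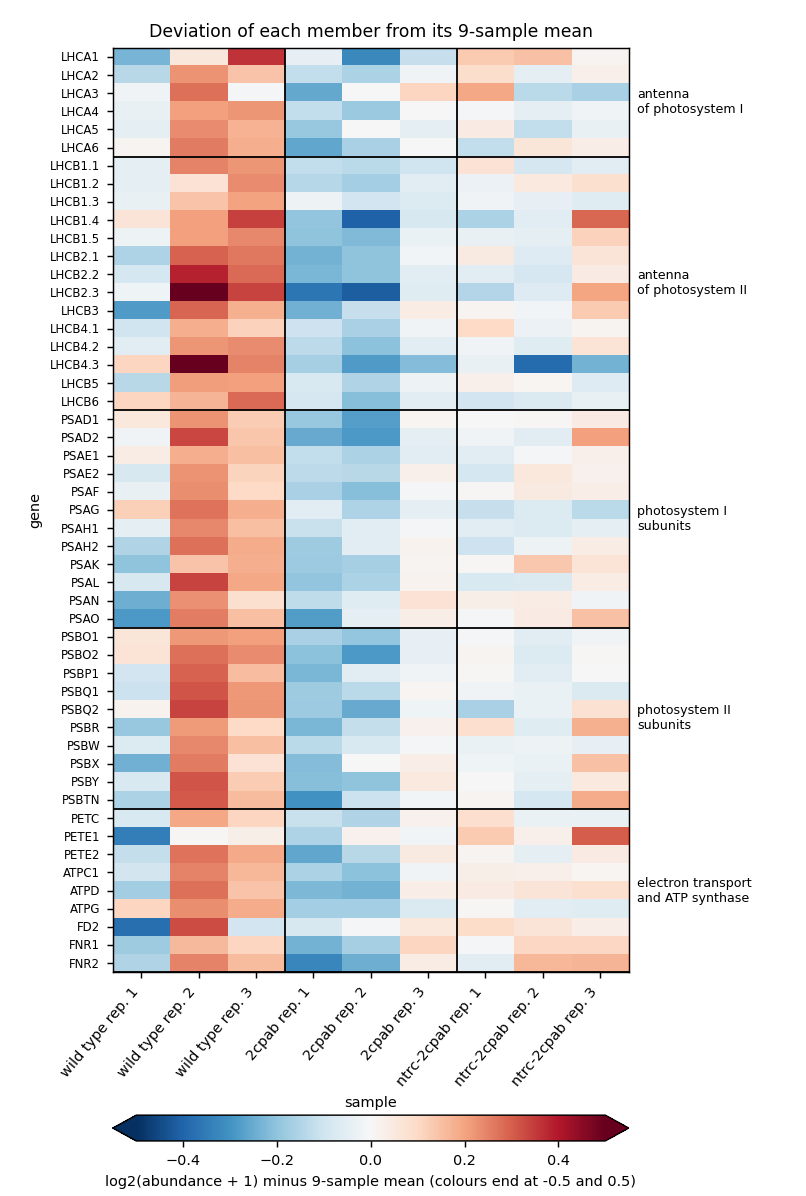
Deviation of each of the 51 genes (rows, grouped by role) from its own 9-sample mean in each sample (columns), as log2(abundance + 1), with red above and blue below the mean. The columns of wild type replicates 2 and 3 are almost wholly red, with medians of 0.24 and 0.18, that of wild type replicate 1 is mostly blue at -0.08, and 2cpab replicates 1 and 2 are the bluest at -0.18 and -0.16.

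In 2cpab, 49 of the 51 genes lay below the wild type, as against 50% of all 16384 loci tested, by a median of 0.23 on the log2 scale (median log2 difference -0.23, range -0.67 to 0.05). The exceptions were PETE1, the minor plastocyanin gene, and FD2, the main leaf ferredoxin gene. Single genes did not pass the test: limma called 0 of 51 at a Benjamini-Hochberg adjusted p under 0.05, where 0.0671% of all loci were called lower and 0.0671% higher, and the smallest adjusted p was 0.0916. At an unadjusted p under 0.05 there were 23 members, all lower (45.1%, against 8.3% of all loci). The 3 samples of 2cpab lay wholly below the 3 of the wild type for 17 members (33.3%, against 11.6% of all loci), and wholly above it for 0 (against 11%). Without wild type replicate 1 all 51 genes lay below the wild type, with a median of -0.33, 46 had an unadjusted p under 0.05 and 0 were called. The shift was smaller without wild type replicate 2, with 47 genes below 0, a median of -0.16 and 12 genes at an unadjusted p under 0.05. That count was 13 when either of the first 2 replicates of 2cpab or the third of the wild type was omitted. Quantile normalization left 48 genes below 0, with a median of -0.15 and 18 at an unadjusted p under 0.05. Undoing the authors' scaling left 47 below 0, with a median of -0.11 and 7 at that level. The median of all loci was then 0.10. In bulk leaf RNA, fewer cells of a type and less RNA per cell cannot be told apart.

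In ntrc-2cpab the genes lay closer to the wild type by their median. Of the 51, 42 were below it (82.4%, against 49.6% of all loci), with a median log2 difference of -0.12 and a range of -0.66 to 0.26. limma called 0 of them, against 1.33% of all loci called lower and 2.61% called higher, with a smallest adjusted p of 0.0575, and 6 had an unadjusted p under 0.05 (11.8%, all lower, against 11.3% of all loci). The groups did not overlap, with ntrc-2cpab lower, for 8 members (15.7%, against 13.9% of all loci) and higher for 0 (against 14.3%). The share of members below the wild type was thus above the background. The shares lower at an unadjusted p under 0.05 or with no overlap were close to it, and the share wholly higher was below it. Without wild type replicate 1 the median was -0.21, 50 genes lay below the wild type, 27 had an unadjusted p under 0.05 and 0 were called. Without wild type replicate 2 the median was -0.05 with 36 genes below the wild type, and without wild type replicate 3 it was -0.09 with 38. The count below 0 depended more on the scaling than in 2cpab: 43 genes with quantile normalization, but 33 with the authors' scaling undone, where the median was -0.04. Undoing it also moved the median of all loci, to 0.06. The median of the members less that of all loci was then -0.11, against -0.12 in the main fit. This comparison and that of 2cpab share the wild-type samples.

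Directly compared, ntrc-2cpab lay above 2cpab for 50 of the 51 genes, by a median of 0.12 on the log2 scale, while the median of all loci was 0.01. No member passed the test in limma (0 of 51 at an adjusted p under 0.05 and 0 at an unadjusted p under 0.05, with a smallest adjusted p of 0.993), and of all loci 0.0061% were called lower and 0% higher. The count at an unadjusted p under 0.05 became 7 without 2cpab replicate 3. It became 6 without wild type replicate 1, with the median unchanged at 0.12. The wild type enters this comparison only through the shared estimate of the spread. The ranges did not overlap for 9 members, all higher in ntrc-2cpab, where 5.37% of all loci lay wholly higher and 4.53% wholly lower. The 95% interval of the difference ran from -0.08 to 0.62 for LHCB2.3, the member with the largest difference at 0.27, and from -0.19 to 0.14 for PSAG, the one member below 0 at -0.02. The direction was less uniform under other scalings: with quantile normalization 35 members lay above 0, and with the authors' scaling undone 43. In the latter the median of all loci was -0.03.

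When both mutants were averaged against the wild type, 3 of the 51 genes were called, all lower, a share of 5.88% against 1.98% of all loci called lower. They were LHCB6, PSAG and ATPG, 1 each from the antenna of photosystem II, photosystem I and the ATP synthase. Of the 51 genes, 49 lay below 0 with a median of -0.17, and 20 had an unadjusted p under 0.05, all lower (39.2%, against 11.7% of all loci). All 6 mutant samples lay below all 3 wild-type samples for 8 members (15.7%, against 7.35% of all loci) and above them for 0 (against 7.51%). The 3 calls were narrow: each was lost in every one of the 9 fits that left out 1 sample, without wild type replicate 1 among them. In that fit 50 genes lay below 0 with a median of -0.27, and 43 had an unadjusted p under 0.05. Without wild type replicate 2 there were 43 below 0, the median was -0.10 and 7 had an unadjusted p under 0.05, and without wild type replicate 3 there were 8 at that level. It was 12 without 2cpab replicate 1 or 2, and 11 without ntrc-2cpab replicate 2. With quantile normalization 44 genes lay below 0, 20 had an unadjusted p under 0.05 and LHCB6 was not called. With the authors' scaling undone 40 lay below 0, 7 had an unadjusted p under 0.05 and none of the 3 was called. The median of all loci was then 0.08.

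**Figure D2:**
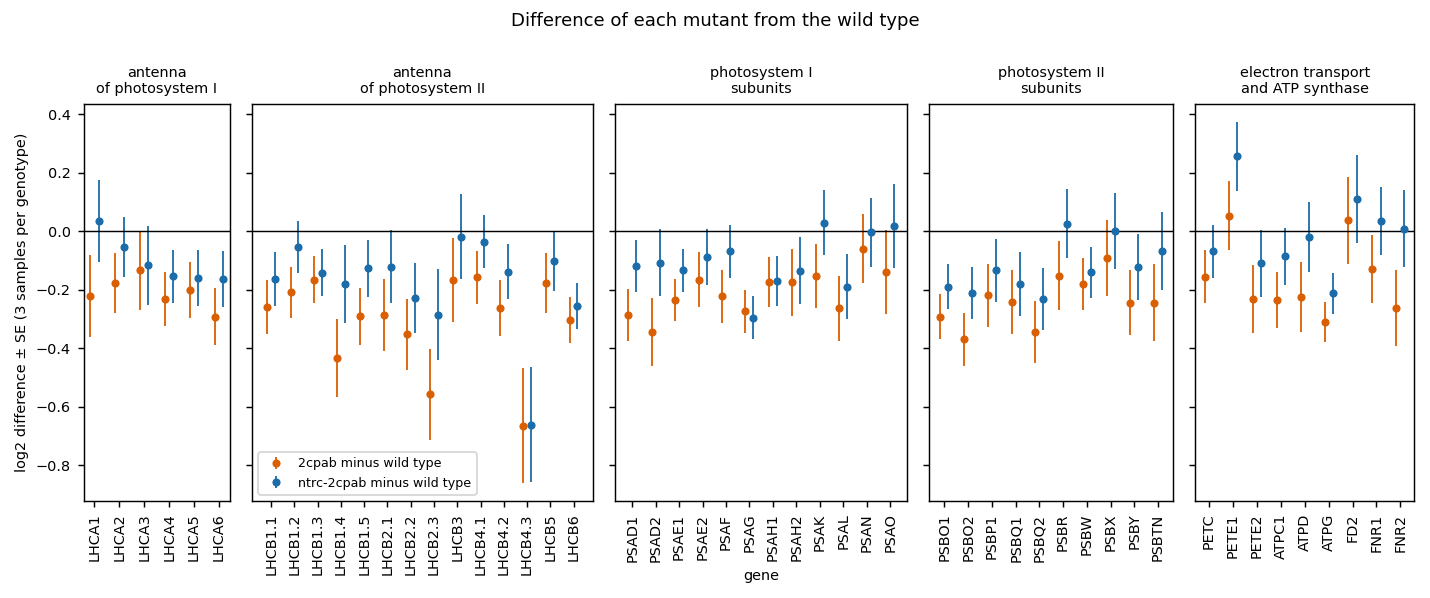
Log2 difference from the wild type with its standard error from limma for each gene (x axis, grouped by role), 2cpab in orange and ntrc-2cpab in blue, 3 samples per genotype. Nearly all orange points lie below 0, the blue points mostly lie between the orange ones and 0, and LHCB4.3 reaches -0.67 and -0.66.

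The antenna of photosystem I was lower in 2cpab for 6 of 6 genes, with a median log2 difference of -0.21, and in ntrc-2cpab for 5 of 6 with a median of -0.14, and limma called 0 in either mutant. LHCA4, whose protein pairs with LHCA1 and carries low-energy chlorophylls, was the most abundant, with 2594, 3069 and 3106 in wild-type leaves, 2444, 2341 and 2666 in 2cpab leaves, and 2645, 2577 and 2634 in ntrc-2cpab. Its wild-type and 2cpab samples overlapped (log2 difference -0.23, adjusted p = 0.234). LHCA6 stood at 52, 61.8 and 58.4 in wild-type leaves, 42.9, 45.9 and 51.3 in 2cpab leaves, and 47.1, 53.6 and 52.6 in ntrc-2cpab. Its 2cpab samples all lay below the wild type, with log2 differences of -0.29 in 2cpab (adjusted p = 0.18) and -0.16 in ntrc-2cpab (adjusted p = 0.335). LHCA1 went from 1602 to 2414 within the wild type, from 1506 to 1826 in 2cpab and from 1899 to 2082 in ntrc-2cpab. The 2 mutants did not overlap for it, with ntrc-2cpab higher by 0.26 (95% interval -0.06 to 0.58, adjusted p = 0.993), and the wild type overlapped both.

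The antenna of photosystem II had the largest shift in 2cpab by its median (-0.27), with 14 of 14 genes lower (13 with quantile normalization), 10 at an unadjusted p under 0.05 (71.4%, against 8.3% of all loci lower at that level) and 8 with no overlap between the groups (57.1%, against 11.6%). In ntrc-2cpab 14 of 14 were again below 0, with a median of -0.14 and 2 with no overlap (14.3%, against 13.9% of all loci), although 12 were below 0 with quantile normalization and 11 with the authors' scaling undone. LHCB1 to LHCB3 form the LHCII trimers, and LHCB4, LHCB5 and LHCB6 are the monomeric proteins CP29, CP26 and CP24 that connect the trimers to the core.

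LHCB6 (AT1G15820, TAIR10.1 chr1:5446462-5447880, minus strand, 2 coding exons) was called in the averaged comparison. It stood at 1131, 1178 and 1276 in the wild-type replicates 1, 2 and 3, at 988, 904 and 1010 in 2cpab, and at 980, 996 and 1021 in ntrc-2cpab. All 6 mutant samples were below the lowest wild-type sample, and the mutants overlapped each other. The log2 difference of the averaged mutants was -0.28 ± 0.0675 (SE), with a limma adjusted p of 0.0478, and it was -0.30 for 2cpab (adjusted p = 0.112) and -0.26 for ntrc-2cpab (adjusted p = 0.0922). Leaving out 1 sample at a time moved the averaged difference between -0.32 and -0.23 and its adjusted p between 0.0712 and 0.128. With quantile normalization the adjusted p was 0.0538.

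The stretch of 250 bases before the annotated start of LHCB6 is shown because it holds a G-box, CACGTG, a sequence known from many light-regulated plant promoters, and an I-box, GATAAG, both in capitals. It was read from the RefSeq TAIR10.1 genome, chr1:5447881-5448130, minus strand, 5′ to 3′.
LHCB6: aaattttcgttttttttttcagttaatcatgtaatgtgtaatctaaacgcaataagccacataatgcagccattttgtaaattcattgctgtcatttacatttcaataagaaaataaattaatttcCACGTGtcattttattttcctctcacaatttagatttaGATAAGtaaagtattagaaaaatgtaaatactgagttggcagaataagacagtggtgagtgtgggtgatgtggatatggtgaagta

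The LHCB4 and LHCB2 families held the members that differed most. LHCB4.3, a CP29 gene far less abundant than its relatives, had 14.8, 27.7 and 16.4 in wild-type leaves, 12, 11 and 11.6 in 2cpab leaves, and 13.2, 10.2 and 11.4 in ntrc-2cpab. All mutant samples were below the wild type, but wild type replicate 2 alone was far above the others. The log2 difference was -0.67 in 2cpab (adjusted p = 0.149), -0.66 in ntrc-2cpab (adjusted p = 0.0874) and -0.66 ± 0.17 (SE) for both averaged (limma adjusted p = 0.0564), and the averaged value ranged from -0.83 to -0.40 with 1 sample left out. LHCB4.1 stood at 1477, 1796 and 1715 in wild-type leaves, 1477, 1415 and 1566 in 2cpab leaves, and 1699, 1554 and 1601 in ntrc-2cpab. LHCB4.2 stood at 810, 979 and 990, then 769, 728 and 810, then 830, 806 and 880 in the same order of genotypes. For both of these genes the wild type overlapped ntrc-2cpab, and wild type replicate 1 lay at the level of the mutants.

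LHCB2 proteins are phosphorylated when LHCII moves between the photosystems in state transitions. LHCB2.3 had 954, 1392 and 1222 in wild-type leaves, 753, 726 and 928 in 2cpab leaves, and 874, 925 and 1109 in ntrc-2cpab. The 2cpab samples were all below the wild type, with a log2 difference of -0.56 ± 0.156 (SE, limma adjusted p = 0.133), and the ntrc-2cpab samples overlapped it, with -0.28 (adjusted p = 0.295). LHCB2.1 stood at 1545, 2109 and 2065 in wild-type leaves, 1459, 1496 and 1701 in 2cpab leaves, and 1772, 1643 and 1796 in ntrc-2cpab. LHCB2.2 stood at 1529, 2120 and 1977, then 1387, 1412 and 1568, then 1565, 1530 and 1669. For both, wild type replicates 2 and 3 lay above all mutant samples and wild type replicate 1 did not.

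LHCB1.3, the most abundant member, had 10796, 12214 and 12732 in wild-type leaves, 10888, 10357 and 10572 in 2cpab leaves, and 10943, 10764 and 10605 in ntrc-2cpab. Its level in wild type replicate 1 lay within the mutants, and the difference in 2cpab was -0.16 (adjusted p = 0.335). The difference turned to 0.15 under quantile normalization, but stayed between -0.234 and -0.115 with 1 sample left out. LHCB1.4 had a larger difference, with 1354, 1493 and 1640 in wild-type leaves, 1127, 976 and 1223 in 2cpab leaves, and 1160, 1245 and 1578 in ntrc-2cpab. Its 2cpab samples were all below the wild type (log2 difference -0.43, adjusted p = 0.161), and ntrc-2cpab overlapped it (-0.18, adjusted p = 0.446). LHCB1.1, LHCB1.2 and LHCB1.3 lie next to each other on chromosome 1, between positions 10472280 and 10479114 of TAIR10.1, and their coding sequences are 95.6 to 96.4% identical, so the split of reads between them is uncertain. The sum over all 5 LHCB1 genes is therefore given as well, although it too can depend on how shared reads were counted, which is not stated. It was 22725 ± 2047 (SD, n = 3) over the wild-type samples, 19495 ± 561 in 2cpab leaves and 20668 ± 323 in ntrc-2cpab, and LHCB1.3 took 50.5 to 55.4% of it. The sum was lower in every 2cpab sample than in every wild-type sample, while ntrc-2cpab overlapped the wild type through replicate 1, at 20435.

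Photosystem I subunits were lower in 2cpab for 12 of 12 genes, with a median of -0.20 and 6 at an unadjusted p under 0.05 (50%, against 8.3% of all loci), and in ntrc-2cpab for 10 of 12 with a median of -0.11. With the authors' scaling undone, PSAN was above 0 in 2cpab. PSAG (AT1G55670, TAIR10.1 chr1:20802670-20803449, minus strand, 1 coding exon), a membrane subunit at the side of photosystem I where LHCA1 binds, was called in the averaged comparison. It had 1588, 1762 and 1655 in wild-type leaves, 1405, 1314 and 1418 in 2cpab leaves, and 1348, 1393 and 1331 in ntrc-2cpab. No mutant sample reached the wild type, and the mutants overlapped each other. The log2 difference was -0.27 in 2cpab (adjusted p = 0.12), -0.30 ± 0.0731 (SE) in ntrc-2cpab (limma adjusted p = 0.0575) and -0.28 ± 0.0633 for both averaged (limma adjusted p = 0.0381). With 1 sample left out the averaged difference lay between -0.32 and -0.24 and its adjusted p between 0.0637 and 0.0889.

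The 250 bases before the annotated start of PSAG (RefSeq TAIR10.1 chr1:20803450-20803699, minus strand, 5′ to 3′) are shown beside those of LHCB6. Of the motifs searched, only TATAAA occurs in them, in capitals, with its first base 245 bases before the start.
PSAG: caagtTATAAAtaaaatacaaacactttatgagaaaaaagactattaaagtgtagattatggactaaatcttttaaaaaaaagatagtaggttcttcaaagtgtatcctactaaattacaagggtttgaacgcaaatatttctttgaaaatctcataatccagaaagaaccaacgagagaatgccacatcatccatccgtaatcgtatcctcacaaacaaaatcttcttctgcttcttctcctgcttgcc

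PSAD and PSAE form the ferredoxin docking site on the stromal side of photosystem I, and each is encoded by 2 genes. PSAD1 stood at 1278, 1441 and 1344 in wild-type leaves, 1080, 1018 and 1241 in 2cpab leaves, and 1234, 1236 and 1266 in ntrc-2cpab, so neither mutant reached the wild type. PSAD2 stood at 447, 572 and 499 in wild-type leaves, 381, 371 and 439 in 2cpab leaves, and 448, 436 and 523 in ntrc-2cpab. For PSAD2 the log2 difference was -0.34 in 2cpab (adjusted p = 0.182) and -0.11 in ntrc-2cpab (adjusted p = 0.614), and ntrc-2cpab overlapped the wild type. PSAE1 had 1059, 1169 and 1146 in wild-type leaves, 947, 924 and 992 in 2cpab leaves, and 995, 1028 and 1049 in ntrc-2cpab, with all mutant samples lower. PSAE2 had 378, 467 and 431, then 365, 363 and 407, then 376, 415 and 406, and overlapped in both mutants.

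PSAH, PSAL and PSAO lie where LHCII binds to photosystem I. PSAO was the most abundant photosystem I subunit, with 1474, 2148 and 1999 in wild-type leaves, 1481, 1738 and 1842 in 2cpab leaves, and 1785, 1850 and 1990 in ntrc-2cpab, and wild type replicate 1 was its lowest sample. PSAH1 had 477, 583 and 547 in wild-type leaves, 457, 475 and 490 in 2cpab leaves, and 476, 471 and 477 in ntrc-2cpab. PSAH2 had 561, 755 and 709, then 551, 600 and 631, then 580, 612 and 639. For both PSAH genes wild type replicates 2 and 3 exceeded all mutant samples and wild type replicate 1 lay among them.

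Photosystem II subunits were lower in 2cpab for 10 of 10 genes, with a median of -0.24 and 3 at an unadjusted p under 0.05 (30%, against 8.3% of all loci), and in ntrc-2cpab for 8 of 10 with a median of -0.14. PSBX was above 0 in 2cpab under quantile normalization and with the authors' scaling undone. PSBO, PSBP and PSBQ shield the manganese cluster that splits water, and PSBO is the subunit that stabilises it. PSBO1, the main PSBO gene, had 1985, 2209 and 2190 in wild-type leaves, 1701, 1664 and 1849 in 2cpab leaves, and 1890, 1828 and 1877 in ntrc-2cpab. PSBO2 had 613, 709 and 688 in wild-type leaves, 507, 480 and 568 in 2cpab leaves, and 591, 557 and 587 in ntrc-2cpab. For both genes all mutant samples were below the lowest wild-type sample. The averaged log2 difference was -0.24 for PSBO1 (limma adjusted p = 0.0672) and -0.29 for PSBO2 (limma adjusted p = 0.0614), so neither passed. In 2cpab alone it was -0.29 for PSBO1 (adjusted p = 0.118) and -0.37 for PSBO2 (adjusted p = 0.103).

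PSBQ2 had 940, 1172 and 1081 in wild-type leaves, 819, 779 and 913 in 2cpab leaves, and 828, 907 and 978 in ntrc-2cpab. Its 2cpab samples were all below the wild type (log2 difference -0.34, adjusted p = 0.163) and its ntrc-2cpab samples overlapped it (-0.23, adjusted p = 0.22). PSBQ1 had 538, 720 and 673, then 513, 528 and 583, then 573, 567 and 552, and overlapped in both mutants. PSBR, a small subunit of the lumenal side that helps PSBP bind, was the most abundant of the group, with 2871, 3791 and 3506 in wild-type leaves, 2791, 3008 and 3316 in 2cpab leaves, and 3468, 3140 and 3697 in ntrc-2cpab. Here too wild type replicate 1 lay at the low end, and the ranges overlapped in both mutants.

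The electron transport and ATP synthase genes were the least uniform group. In 2cpab 7 of 9 were lower, with a median of -0.23, and in ntrc-2cpab 5 of 9, with a median of -0.02 that turned to 0.06 with the authors' scaling undone. The median of all loci was then 0.06 as well. ATPG (AT4G32260, TAIR10.1 chr4:15573553-15574737, minus strand, 2 coding exons), which encodes the peripheral stalk subunit of the ATP synthase that pairs with the plastid-encoded subunit b, was the third gene called in the averaged comparison. It stood at 227, 247 and 239 in wild-type leaves, 187, 187 and 200 in 2cpab leaves, and 211, 202 and 201 in ntrc-2cpab. The 3 genotypes did not overlap, with the wild type highest and 2cpab lowest. The averaged log2 difference was -0.26 ± 0.0601 (SE, limma adjusted p = 0.043), with -0.31 ± 0.0694 in 2cpab (limma adjusted p = 0.0916) and -0.21 in ntrc-2cpab (adjusted p = 0.108). With 1 sample left out the averaged difference lay between -0.29 and -0.23 and its adjusted p between 0.0625 and 0.0977.

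The 250 bases before the annotated start of ATPG (RefSeq TAIR10.1 chr4:15574738-15574987, minus strand, 5′ to 3′) complete the set of called genes. The capitals mark TATAAA and the I-box, both here on the opposite strand and therefore printed as TTTATA and CTTATC.
ATPG: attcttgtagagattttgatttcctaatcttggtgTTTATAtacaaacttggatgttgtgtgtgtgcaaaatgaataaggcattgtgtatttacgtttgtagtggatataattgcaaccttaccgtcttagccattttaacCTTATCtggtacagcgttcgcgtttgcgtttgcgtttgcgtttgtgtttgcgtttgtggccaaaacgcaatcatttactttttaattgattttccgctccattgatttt

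**Figure D3:**
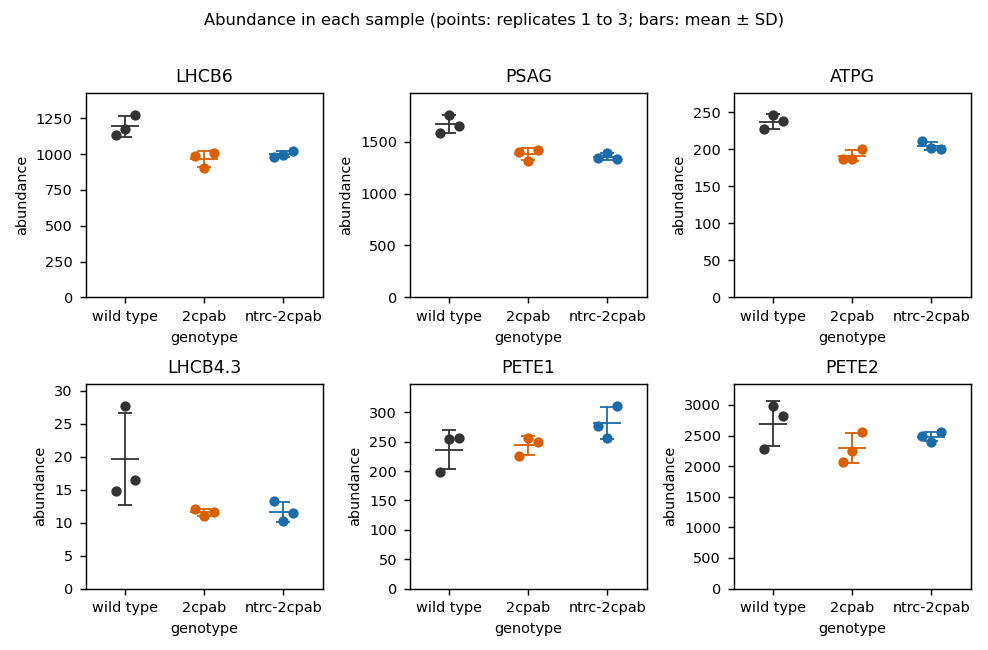
Abundance of 6 genes in each sample, with points for replicates 1 to 3 from left to right, bars for mean ± SD (n = 3) and the y axis from 0. For LHCB6, PSAG, ATPG and LHCB4.3 every mutant point lies below every wild-type point, PETE1 in ntrc-2cpab reaches 311 against at most 257 in wild-type leaves, and PETE2 overlaps.

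Plastocyanin, the copper protein that carries electrons to photosystem I, is encoded by PETE1 and PETE2, and the genes differed from the wild type in opposite directions, though neither passed the test. PETE2, the major gene, had 2279, 2985 and 2824 in wild-type leaves, 2068, 2249 and 2554 in 2cpab leaves, and 2497, 2402 and 2550 in ntrc-2cpab. PETE1 had 198, 254 and 257 in wild-type leaves, 226, 256 and 250 in 2cpab leaves, and 277, 257 and 311 in ntrc-2cpab. For PETE1 wild type replicate 1 was the lowest sample and ntrc-2cpab replicate 3 the highest. The log2 differences of PETE1 were 0.05 in 2cpab (adjusted p = 0.848) and 0.26 ± 0.118 (SE) in ntrc-2cpab (limma adjusted p = 0.217), and those of PETE2 were -0.23 (adjusted p = 0.345) and -0.11 (adjusted p = 0.604). In 2cpab the direction of PETE1 turned to -0.01 under quantile normalization, and to -0.07 when wild type replicate 1 was left out.

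The plastocyanin genes share 75% of their aligned coding bases. Their 250 bases before the annotated start, from RefSeq TAIR10.1 and both on the minus strand, 5′ to 3′, are printed together so that the pair can be compared. PETE1 (chr1:28554931-28555180) holds 1 TATAAA, and PETE2 (chr1:7043393-7043642) holds 2, the second on the opposite strand as TTTATA, with an I-box on the opposite strand (CTTATC) and a CCAATC, all in capitals.
PETE1: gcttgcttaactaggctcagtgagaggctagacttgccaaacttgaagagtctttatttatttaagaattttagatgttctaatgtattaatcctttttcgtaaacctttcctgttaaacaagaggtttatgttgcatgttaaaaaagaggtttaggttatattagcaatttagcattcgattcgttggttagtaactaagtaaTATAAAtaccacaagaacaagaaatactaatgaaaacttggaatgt
PETE2: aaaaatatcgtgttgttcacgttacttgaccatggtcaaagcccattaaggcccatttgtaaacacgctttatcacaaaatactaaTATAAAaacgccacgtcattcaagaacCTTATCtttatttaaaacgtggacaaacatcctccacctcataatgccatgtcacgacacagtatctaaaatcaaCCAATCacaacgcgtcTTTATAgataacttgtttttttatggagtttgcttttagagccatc

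FD2 varied widely between the wild-type samples, which had 1297, 2113 and 1578, while 2cpab had 1593, 1678 and 1747 and ntrc-2cpab 1795, 1763 and 1723. Both mutants lay inside the wild-type range, and the log2 differences of 0.04 (adjusted p = 0.928) and 0.11 (adjusted p = 0.691) turned to -0.13 and -0.05 without wild type replicate 1. FNR1 and FNR2, the leaf FNR genes, had their lowest mean in 2cpab. FNR1 had 269, 340 and 328 in wild-type leaves, 258, 271 and 328 in 2cpab leaves, and 303, 326 and 327 in ntrc-2cpab. FNR2 had 153, 202 and 190, then 135, 143 and 174, then 164, 191 and 191. Against 2cpab, ntrc-2cpab was higher for FNR2 by 0.27 (95% interval -0.02 to 0.57, adjusted p = 0.993), and its samples overlapped.

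Photosystem I, photosystem II and antenna genes stood in similar proportions to each other in all genotypes. The summed abundance of photosystem I subunits over that of photosystem II subunits was 0.812 to 0.835 in wild-type leaves, 0.805 to 0.845 in 2cpab leaves and 0.798 to 0.854 in ntrc-2cpab. The sum over LHCB genes relative to photosystem II subunits was 2.19 to 2.39, 2.2 to 2.42 and 2.19 to 2.29 in the same order, and the sum over LHCA genes relative to photosystem I subunits was 0.691 to 0.734, 0.708 to 0.733 and 0.685 to 0.782. All these ranges overlapped, and a factor per sample cancels in such ratios. LHCB genes over LHCA genes gave 3.903 to 3.968 in wild-type leaves, 3.749 to 3.902 in 2cpab leaves and 3.601 to 4.014 in ntrc-2cpab. For this ratio the 2cpab samples lay below the wild type by a margin in the last digit, and ntrc-2cpab overlapped both. As shares of the nuclear abundance, LHCB genes made up 7.28 to 8.13% in wild-type leaves, 6 to 6.88% in 2cpab leaves and 6.77 to 7.12% in ntrc-2cpab, with both mutants wholly below the wild type. The shares of photosystem II subunits were 3.13 to 3.68%, 2.72 to 3.12% and 3.01 to 3.25%, and those of photosystem I subunits 2.61 to 2.99%, 2.19 to 2.58% and 2.4 to 2.61%, and for these roles the 2cpab samples alone lay wholly below the wild type.

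Paralogous genes of 1 subunit were also compared within each sample, where a factor per sample cancels, and are given as ranges, without a test. Of 11 pairs, 8 had ratios in 2cpab that did not overlap the wild type, 3 in ntrc-2cpab, and 3 in all 6 mutant samples together. Abundances of single loci did not overlap, in either direction, for 22.6, 28.2 and 14.9% of all loci in these comparisons. These shares are not of ratios, in which a factor per sample cancels. Ratios of other gene pairs were not computed, so the counts of pairs have no background of their own. The pairs are not independent, since LHCB2.1 and LHCB4.1 each belong to 2 of them. The pairs of PSAD, PSAE and PSAH overlapped in 2cpab. PETE1 over PETE2 had log2 ratios of -3.52, -3.56 and -3.46 in wild-type leaves, -3.19, -3.13 and -3.35 in 2cpab leaves, and -3.17, -3.22 and -3.03 in ntrc-2cpab. PETE1 was thus 7.83 to 8.35% of the plastocyanin transcripts in the wild type, 8.91 to 10.2% in 2cpab leaves and 9.67 to 10.9% in ntrc-2cpab, and wild type replicate 1 lay with the other wild-type samples.

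The other pairs that separated all mutant samples from the wild type were in the antenna of photosystem II. LHCB4.1 over LHCB4.3 had log2 ratios of 6.65, 6.02 and 6.71 in wild-type leaves, 6.94, 7.01 and 7.08 in 2cpab leaves, and 7, 7.25 and 7.13 in ntrc-2cpab. LHCB2.1 over LHCB2.2 had 0.02, -0.01 and 0.06, then 0.07, 0.08 and 0.12, then 0.18, 0.10 and 0.11, a small separation between genes that are 92.9% identical in their coding sequence. FNR1 over FNR2 had 0.81, 0.75 and 0.79 in wild-type leaves, 0.93, 0.92 and 0.91 in 2cpab leaves, and 0.89, 0.78 and 0.77 in ntrc-2cpab. It was the one pair of 11 whose ratio separated the 2 mutants, with 2cpab higher than both other genotypes in every sample of it. In abundance, not as a ratio, 9.91% of single loci did not overlap between the mutants.

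**Figure D4:**
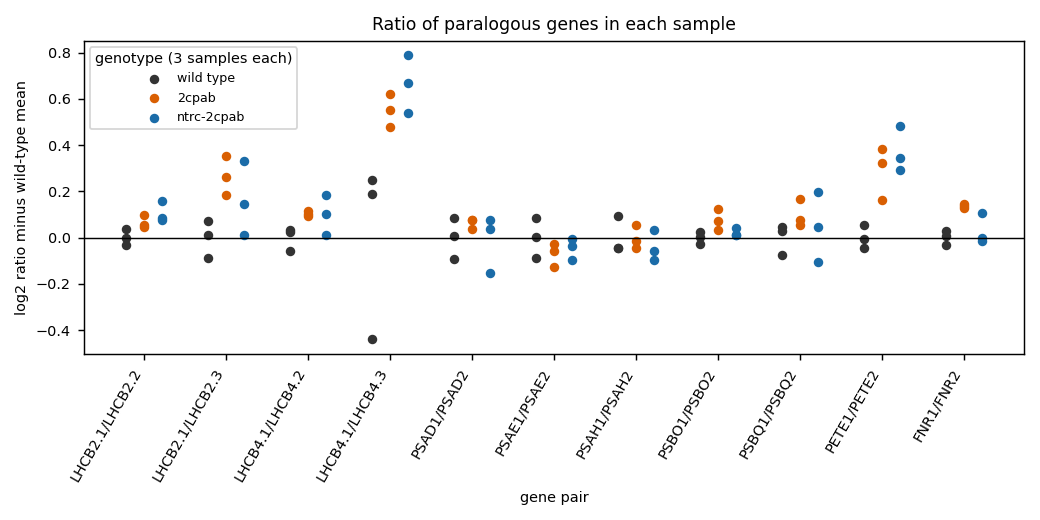
Log2 ratio of the abundances of the genes in each of 11 pairs, minus the mean of the 3 wild-type samples (black), with 2cpab in orange and ntrc-2cpab in blue and 1 point per sample. LHCB4.1/LHCB4.3 and PETE1/PETE2 show mutant points wholly above the wild type, while the pairs of PSAD, PSAE and PSAH overlap.

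The promoters of the 51 genes, taken as 250 bases before the annotated start, were searched on both strands for 5 short sequences, with the same search over 27443 nuclear protein-coding genes as background. The G-box CACGTG was in 10 members (19.6%, against 6.49% of all promoters) and the I-box GATAAG in 13 (25.5%, against 12.3%). CCAATC, which holds the CCAAT sequence, was in 14 members (27.5%, against 10.2%): in 3 of 6 LHCA and 7 of 14 LHCB promoters, in 0 of 12 of photosystem I subunits, in 1 of 10 of photosystem II subunits and in 3 of 9 of the last group. TATAAA (47.1%, against 47.3%) and the evening element core AATATCT (11.8%, against 10%) were about as frequent as elsewhere. These are matches of letters, and no binding was measured.

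Among other genes of the same pathway, 32 loci of plastid-encoded subunits lay below the wild type in 2cpab in 27 cases, with a median log2 difference of -0.25, and limma called 0 of them. In ntrc-2cpab 24 were below 0, with a median of -0.10, and 2 were called, both lower (6.25%, against 1.33% of all loci). In the averaged comparison 27 were below 0 and 7 called, all lower (21.9%, against 1.98%). With quantile normalization 15, 17 and 17 of the 32 were below 0 in the 3 comparisons, and the 7 calls became 2. That method gives every sample the same set of values. It can therefore remove a shift shared by the most abundant loci, many of which are plastid loci. Without wild type replicate 1 the averaged comparison had 0 calls. Reads of plastid loci in poly(A) RNA also depend on the selection of RNA. Of 12 related nuclear genes, such as PSBS and early light-induced proteins, 6 were below 0 in 2cpab with a median of 0, and 0 were called in either mutant. In the averaged comparison 1 of them was called lower (8.33%, against 1.98% of all loci). It was PPL1, a PSBP-like protein needed for repair of photosystem II (60.9, 59.8 and 62.3 in the wild type against 48.3 to 52.6 in the mutants, log2 difference -0.27, limma adjusted p = 0.0332). The call was lost with any 1 sample left out.

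Assembly and antenna-targeting factors numbered 19, of which 18 were below 0 in 2cpab with a median of -0.16, and 14 in ntrc-2cpab with a median of -0.12. With the authors' scaling undone 12 and 11 were below 0, where the medians of all loci were 0.10 and 0.06. CYP38, a lumenal immunophilin needed to assemble photosystem II, was called in each comparison with the wild type. Of the 19 factors 5.26% were called lower in 2cpab and 10.5% in ntrc-2cpab and in the averaged comparison, against 0.0671, 1.33 and 1.98% of all loci. CYP38 had 66.4, 67.5 and 70.7 in wild-type leaves, 49.9, 47.9 and 49.2 in 2cpab leaves, and 52.6, 53.5 and 48.4 in ntrc-2cpab. The mutants were wholly below the wild type, by -0.47 in 2cpab (limma adjusted p = 0.0485), -0.40 in ntrc-2cpab (adjusted p = 0.0223) and -0.43 averaged (adjusted p = 0.0111). The averaged call held under all 10 other settings and in 8 of the 9 fits with 1 sample left out, with adjusted p from 0.00858 to 0.0357 and from 0.0186 to 0.0517, and was lost without wild type replicate 1. In 2cpab alone it held in 1 of those 9 fits, and in ntrc-2cpab in 4. HCF173, a factor for translation of the photosystem II reaction centre protein D1, had 34.7, 32.3 and 31.5 in wild-type leaves, 28.7, 25.9 and 26.5 in 2cpab leaves, and 27.2, 24.5 and 22 in ntrc-2cpab. Every mutant sample was below the wild type, and the gene was called in ntrc-2cpab (-0.41, limma adjusted p = 0.0421) and in the averaged comparison (-0.34, adjusted p = 0.0431), but not in 2cpab (-0.27, adjusted p = 0.18). With 1 sample left out it was called in 0 of 9 fits in ntrc-2cpab and in 1 of 9 in the averaged comparison.

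Markers of other leaf cell types moved with some of these differences. All 5 guard cell markers were below 0 in 2cpab and in ntrc-2cpab (4 in ntrc-2cpab with the authors' scaling undone), and their summed level was 25.1 to 29.7 in wild-type leaves, 18.4 to 22.7 in 2cpab leaves and 21.7 to 24.2 in ntrc-2cpab. The 3 phloem markers summed to 62.6 to 64.3, 47.4 to 56.3 and 51.7 to 57.5. The 4 xylem markers (24.1 to 26.8, 21.7 to 29.5 and 20.4 to 24.7) and the 3 trichome markers (1.28 to 1.46, 1.18 to 1.96 and 1.2 to 1.87) overlapped between genotypes. The mesophyll markers, with sums of 16000 to 20900, 13800 to 15600 and 14200 to 15500, had lower sums in both mutants, as the photosynthesis genes did. KAT1, a guard cell potassium channel, and CA1, a carbonic anhydrase, were called lower in the averaged comparison (limma adjusted p = 0.0272 and 0.0336). They were 1 of 5 guard cell markers (20%) and 1 of 3 mesophyll markers (33.3%), against 1.98% of all loci called lower. KAT1 was called in 5 of 9 fits with 1 sample left out and CA1 in 1 of 9, neither without wild type replicate 1. The 3 immune response genes summed to 15.7 to 142 in wild-type leaves, 92.6 to 169 in 2cpab leaves and 69 to 219 in ntrc-2cpab. The part of cell type makeup and of immune activity in the differences was not tested.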

How the data were processed

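Samples were grouped by the genotype in the labels. The authors deposited 1 table of log2 values of a scaled abundance plus 1. FastQC, HISAT2, StringTie and the build TAIR10 are named in the submitters' processing notes, without versions. How samples were scaled was worked out from the low values: less the offset and divided by a sample factor of 0.9699 to 1.095, they were whole in the decimal of place 6 for 98.9 to 99.5% (tolerance 0.05), and all samples had the same 75th percentile, 2.7483 on the log2 scale. Depth is unknown, and differences in total RNA are not visible. How reads shared by similar or overlapping genes were counted is not stated.

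The abundance was calculated back, and limma 3.58.1 (R 4.3.3; lmFit, contrasts.fit, eBayes with an intensity trend) was fitted to the log2 values of 16384 loci with a mean abundance of at least 1. All 9 samples entered together (residual degrees of freedom 6), and each two-sided test was followed by Benjamini-Hochberg adjustment over all loci of a comparison, with calls at under 0.05. The test was checked on simulated data with noise drawn independently for each gene, which does not cover shifts shared by many genes. p-values measure the spread between pools of plants.

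The 51 genes and all lists were chosen with earlier results of these data known. Values in every sample are given for the most abundant gene of each role, the 2 members of each role with the largest difference in any comparison, the called ones and paralog pairs, and for a few others chosen after their values were seen. Sequences and positions are those of the RefSeq assembly TAIR10.1. Alternatives changed the scaling, filter, offset, weights, trend, block and samples.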

Additional observations from a re-analysis of the deposited data

How the results depend on the processing

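The comparisons were repeated under 10 other settings and with each of the 9 samples left out. For 2cpab against the wild type 0 members were called in every one, and the median ran from -0.33 to -0.16 with 1 sample left out and reached -0.11 with the authors' scaling undone, which shifted all loci by 0.10. For ntrc-2cpab the leave-one-out range was -0.21 to -0.05 with 0 called, and 1 gene, PSAG, was called with quantile normalization and also 1 with a minimum mean abundance of 5. For ntrc-2cpab against 2cpab the median ran from 0.09 to 0.16 with 1 sample left out and 0 were called. The 3 calls of the averaged comparison became 4 with quantile normalization (LHCB4.3, PSAG, PSBO2 and ATPG, without LHCB6), 0 with the authors' scaling undone, 1 with no filter on low abundance, 6 at a minimum of 5 and 8 with array weights. With 1 sample left out they ranged from 0 to 0, and the median from -0.27 to -0.10. The lists of other pathway genes moved as well. With 1 sample left out, calls among plastid-encoded subunits ranged over 0 to 2 in ntrc-2cpab and 0 to 4 averaged, among related nuclear genes over 0 to 0 averaged, and among assembly factors over 0 to 1 in 2cpab, 0 to 1 in ntrc-2cpab and 0 to 2 averaged. For plastid-encoded subunits calls were 2 with scaling undone and 3 with array weights in 2cpab, 0 (no filter, groups compared alone, block) or 1 (weights) in ntrc-2cpab, and 2 (quantile, block), 4 (scaling undone) or 0 (no filter) averaged. Related nuclear genes had 1 in ntrc-2cpab with quantile, median-of-ratios, either filter and weights, and averaged 3 (quantile), 2 (weights) or 0 (scaling undone, block). Assembly factors had 0 in 2cpab with no filter, no trend, groups compared alone or block, 1 (scaling undone, no filter) or 0 (groups compared alone) in ntrc-2cpab, and 4 (quantile) or 1 (scaling undone, no filter) averaged. Over all loci, calls in the averaged comparison went from 325 lower to 9 without wild type replicate 1.

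Directions turned for LHCB1.3 (0.15) and PETE1 (-0.007) in 2cpab with quantile normalization. With 1 sample left out, PETE1 in 2cpab ranged from -0.066 to 0.12, and FD2 from -0.127 to 0.224 in 2cpab and from -0.053 to 0.299 in ntrc-2cpab, each below 0 only without wild type replicate 1. The cause was not tested.

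With the replicate number as a block, 0 members were called in the averaged comparison, and calls over all loci went from 325 lower to 149. The numbers were not taken to pair the samples: samples of the same number had correlations of their deviations from -0.16 to 0.21, and not every sample correlated best with its own number. Without read counts, precision is limited by 3 samples per genotype.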
